A study of Homo sapiens with 6 samples.

Results

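Mitosis and spindle genes, a set of 50 genes that cells use to enter mitosis, build the spindle, check chromosome attachment and divide, were followed through RNA-seq of H1155 cells. The set was given by name, and each of the 50 symbols matched 1 row of the 58735 genes in the count table. H1155 is a human neuroendocrine large cell lung cancer line. There were 3 WT (wild-type) libraries and 3 libraries labelled GFI1-KO, all from untreated cells kept in DMEM with 10% FBS. GFI1 is a zinc finger transcriptional repressor. Its knockout was made with CRISPR/Cas9 and paired guide RNAs that cut in the GFI1 promoter region, after which monoclonal GFP-positive clones were sorted. Which clone gave which library was not stated, so a trait of 1 clone and the knockout cannot be told apart, and neither can a difference in preparation between the groups. Nothing states that the replicates were separate cultures, so each p-value measures the spread between these libraries.

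Most of these genes are switched on as cells pass from S phase to mitosis. Their promoters often carry a cell cycle homology region (CHR), bound by the MuvB complex, and CCAAT boxes, bound by NF-Y. MuvB binds there with repressive DREAM partners in resting cells and with MYBL2 and then FOXM1 as the cycle proceeds. Cyclin B with CDK1 drives entry into mitosis, kinetochores and the spindle checkpoint hold chromosomes until all are attached, and the anaphase-promoting complex (APC/C) then marks cyclin B and securin for destruction. In bulk RNA, fewer cells in mitosis and less of each RNA per cell cannot be told apart.

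The libraries held 14882914 to 16102215 counts for WT and 17503794 to 17692882 for GFI1-KO. GFI1 itself (ENSG00000162676, chr1:92474762-92486876, minus strand, build hg38 as below) had 153, 106 and 125 counts in WT and 174, 188 and 170 in the libraries labelled GFI1-KO. GFI1 RNA was thus not reduced under the GFI1-KO label (log2 fold change 0.31, SE 0.12, edgeR adjusted p = 0.0273). Once corrected for GC content, its log2 fold change was 0.21 (edgeR adjusted p = 0.149). That correction, called the GC correction throughout, also took in gene length, and the 2 were not separated. An RNA level does not show whether the protein was lost. Every direction given here rests on the labels. All 11 neuroendocrine markers examined passed the filter on low counts, 7 higher and 4 lower (36.5% and 35.9% of all genes tested), but 4 higher and 5 lower after correction for GC content. INSM1, a neuroendocrine transcription factor, stood at 149.6 FPKM (fragments scaled to gene length and library size) in WT and 139.5 FPKM in the libraries labelled GFI1-KO. Of 8 leukocyte markers, 1 passed the filter and was not called. Of 5 epithelial markers 4 passed (1 higher, 2 lower). EPCAM had 61, 51 and 78 counts in WT and 10, 22 and 13 in the libraries labelled GFI1-KO, and CDH1 35, 18 and 24 against 10, 6 and 1. Of 8 fibroblast markers 4 passed (1 higher, 3 lower), COL3A1 with 2, 3 and 2 against 129, 143 and 170 counts and PDGFRB with 136, 128 and 135 against 17, 15 and 15. The part of such genes in the results on mitotic genes was not tested.

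RefSeq promoters (GRCh38.p14) were found for 43 of the 50 genes. AURKA, BIRC5, BUB3, FOXM1, TPX2, TTK and UBE2C had no entry. The window ran from 250 bases before the first listed start to 50 bases after it. The CHR core TTTGAA, read on both strands (TTCAAA), was in 30 of the 43 (69.8%), against 15.2% of all 35116 promoters of the same length. The CCAAT box (ATTGG on the other strand) was in 34 (79.1%, against 34.6%), and both were in 26 (60.5%, against 5.90%). The 4 letters AATC (GATT), the core that GFI1 recognises, were in 35 (81.4%), against 69.0% of all promoters, and they overlap any CCAAT box that is followed by C. A CHR core was in 5 of the 9 matched genes with higher RNA in the libraries labelled GFI1-KO, in 22 of the 31 with lower RNA and in 3 of the 3 not called. A CCAAT box was in 7 of 9, 24 of 31 and 3 of 3, and AATC in 7 of 9, 25 of 31 and 3 of 3. Over the 11514 promoters of tested genes the shares were 9.63% for the CHR core, 36.1% for the CCAAT box and 61.2% for AATC. Each motif was thus found in genes called in either direction, by the calls without the GC correction. With it, of the 5 higher genes with a CHR core, INCENP and CDC20 were not called and ESPL1 was lower. KIFC1 and PRC1 remained higher, although the direction for PRC1 is uncertain, as described below.

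The 250 bases before the start are shown for called genes with a CHR core in those bases, the pair with the lowest and the pair with the highest log2 fold change. They are written 5′ to 3′ on the gene's strand, with CHR cores and CCAAT boxes on either strand in capitals.
HMMR (chr5:163460382-163460631, plus strand): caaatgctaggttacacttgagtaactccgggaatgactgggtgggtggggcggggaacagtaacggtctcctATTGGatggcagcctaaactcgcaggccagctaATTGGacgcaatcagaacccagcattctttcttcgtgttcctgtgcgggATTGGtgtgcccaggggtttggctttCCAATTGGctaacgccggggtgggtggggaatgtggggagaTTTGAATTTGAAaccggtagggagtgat
DLGAP5 (chr14:55191586-55191835, minus strand): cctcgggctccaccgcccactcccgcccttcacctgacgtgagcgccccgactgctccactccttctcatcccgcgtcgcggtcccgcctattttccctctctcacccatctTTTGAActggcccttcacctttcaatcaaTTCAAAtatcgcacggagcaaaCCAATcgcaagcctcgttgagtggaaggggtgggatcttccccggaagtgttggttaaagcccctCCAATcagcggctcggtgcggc
CDC20 (chr1:43358731-43358980, plus strand): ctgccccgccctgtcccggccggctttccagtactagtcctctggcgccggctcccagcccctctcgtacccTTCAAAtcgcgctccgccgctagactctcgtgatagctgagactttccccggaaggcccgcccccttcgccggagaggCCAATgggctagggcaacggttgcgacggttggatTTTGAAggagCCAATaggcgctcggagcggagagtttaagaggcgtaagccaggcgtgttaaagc
PRC1 (chr15:90994536-90994785, minus strand): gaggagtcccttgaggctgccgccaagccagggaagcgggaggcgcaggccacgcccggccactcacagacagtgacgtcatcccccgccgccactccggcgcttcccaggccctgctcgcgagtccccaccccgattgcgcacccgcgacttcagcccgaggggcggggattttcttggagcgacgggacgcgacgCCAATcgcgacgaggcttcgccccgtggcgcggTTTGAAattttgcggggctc
KIFC1, whose only CHR core lies after the start, is not shown. In HMMR, whose RNA fell by 1.18 on the log2 scale, 2 adjoining CHR cores begin 28 and 22 bases before the start, with 5 CCAAT boxes upstream of them. DLGAP5 (fell by 0.95) has CHR cores 138 and 109 bases before the start and CCAAT boxes at 87 and 22. CDC20 (log2 fold change 0.47) has CHR cores at 178 and 65 and CCAAT boxes at 100 and 55. PRC1 (0.90) has a single CHR core at 20 and a CCAAT box at 53. These genes were picked for holding a CHR core, so its presence in both pairs follows from the choice. A CCAAT box was also present in the pair with lower RNA and in the pair with higher RNA, by the calls without the GC correction. With that correction CDC20 was not called (-0.012, edgeR adjusted p = 0.791). The direction for PRC1 is uncertain, as described below. A match is only a match of letters.

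All 50 genes passed the filter on low counts, among 17514 genes tested. In the libraries labelled GFI1-KO, 36 were lower, 11 were higher and 3 (MKI67, CENPA and CDCA8) did not pass edgeR's quasi-likelihood test at an adjusted p of at most 0.05. Over all genes tested, 35.9% were lower and 36.5% higher. With the GC correction these shares were 25.8% and 35.4%. The shares are the background for the counts of each role group below. The median log2 fold change, GFI1-KO over WT, was -0.32 for the 50 genes and 0.00 for all genes tested. The changes were modest. In 26 of the 50 the log2 fold change lay within 0.5 of zero, and the median size of the called changes was 0.51, against 0.61 over all called genes. HMMR and CENPE alone fell by at least 1 on the log2 scale, a size that 7.29% of the genes tested reached. Normalized counts (counts scaled by the edgeR library sizes to the mean library) did not overlap between the groups for 46 of the 50, 35 of them lower and 11 higher. That was so for 74.5% of all genes tested. MKI67, CDC25C, CENPA and CDCA8 overlapped.

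Together the 50 genes took 0.997%, 0.984% and 0.997% of all counts in the WT libraries and 0.764%, 0.758% and 0.760% in those labelled GFI1-KO, or 0.993% ± 0.0078 against 0.761% ± 0.0030 (SD, n = 3 libraries each, as for every mean here). The 3 labelled knockout libraries lay below all 3 WT libraries. These shares were not corrected for GC content, whose median was 43.7% for the 50 genes and 48.2% for all genes tested. TOP2A and MKI67 together made up 17.1% to 18.4% of the summed counts. Replicates differed little: the median coefficient of variation was 3.51% in WT and 2.98% in GFI1-KO, and the largest was 29.5%, for PRC1 in WT.

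**Figure D1:**
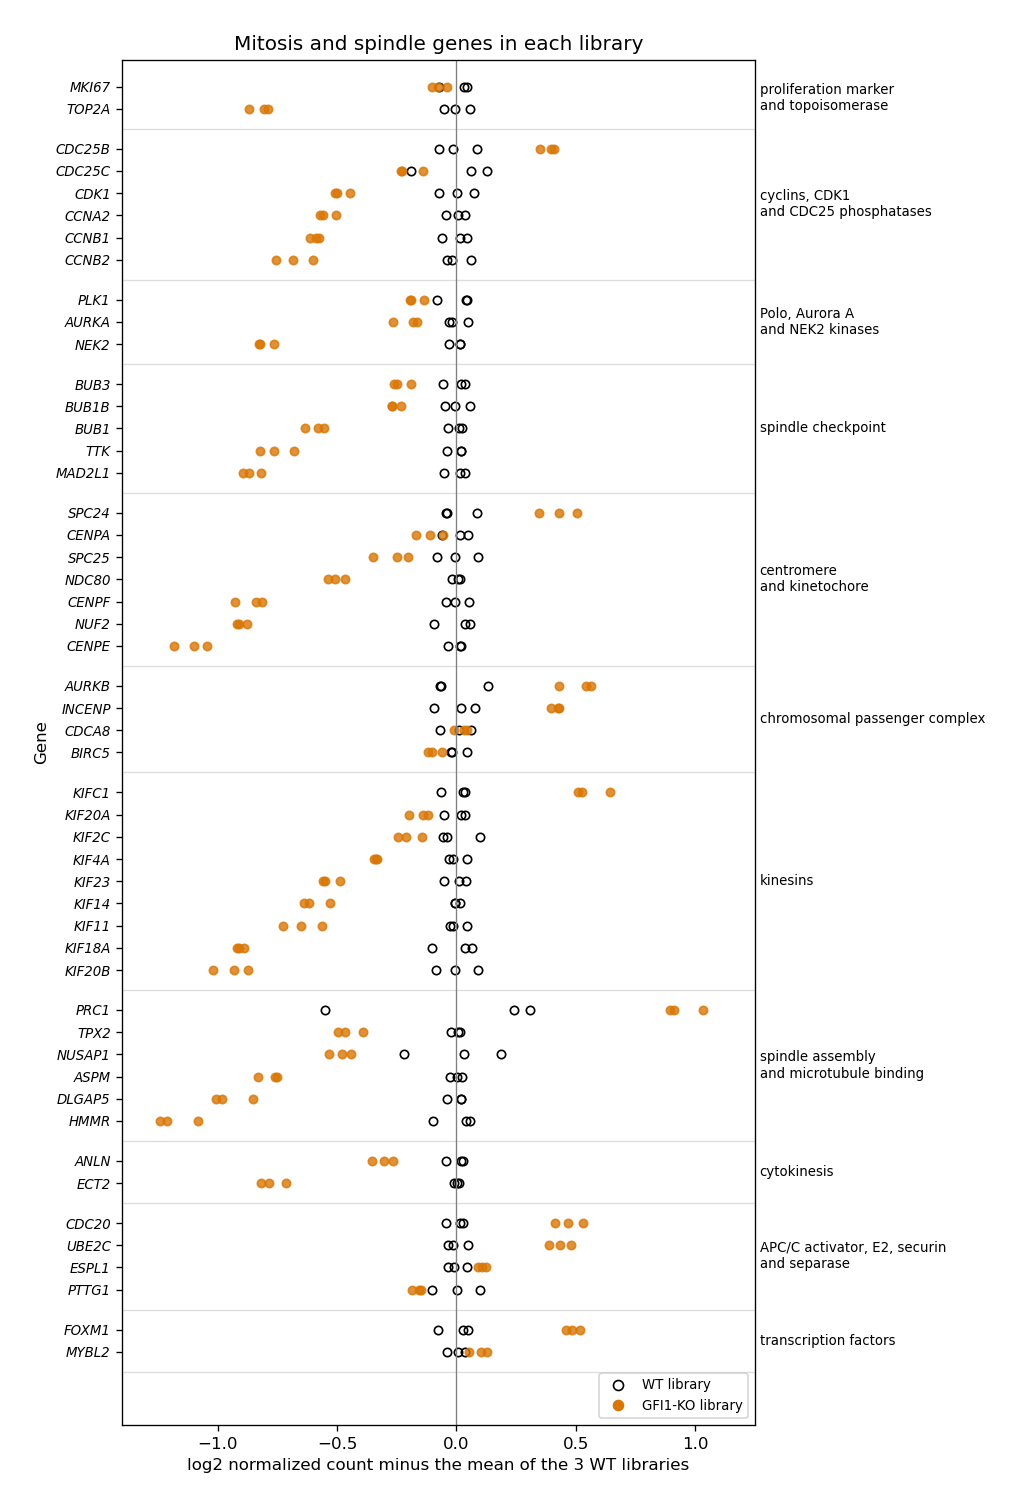
Normalized counts of the 50 genes in each of the 6 libraries, on a log2 scale relative to the mean of the 3 WT libraries (x axis), with a row per gene grouped by role (y axis). Open circles are WT libraries and filled circles libraries labelled GFI1-KO. The filled circles lie left of the open ones for 35 genes, right of them for 11 and among them for MKI67, CDC25C, CENPA and CDCA8.

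MKI67 encodes Ki-67, the nuclear antigen that coats mitotic chromosomes and marks cycling cells, and TOP2A encodes the topoisomerase that untangles DNA before chromosomes part. The pair differed. MKI67 (ENSG00000148773, chr10:128096659-128126385, minus strand) had normalized counts of 13837, 13953 and 12859 in the WT libraries and 13157, 12618 and 12814 in the libraries labelled GFI1-KO. The groups overlapped, and the log2 fold change of -0.075 (SE 0.034) had an edgeR adjusted p of 0.0501, just over the threshold. TOP2A (ENSG00000131747, chr17:40388516-40417950, minus strand) had normalized counts of 16445, 15914 and 17148 in the WT libraries and 9550.4, 9037 and 9424 in the libraries labelled GFI1-KO. The labelled knockout libraries all lay far below every WT library. It fell by 43.4% (log2 fold change -0.82, SE 0.034, edgeR adjusted p = 2.22e-17). GC content was 38.9% for TOP2A and 48.3% for MKI67. After the GC correction, TOP2A remained lower at a smaller size (-0.29, edgeR adjusted p = 7.34e-09). MKI67 then stood at 0.051 and was not called (edgeR adjusted p = 0.194).

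Of the genes for mitotic cyclins, CDK1 and CDC25 phosphatases, 5 were lower and 1 was higher. CCNB2, a B-type cyclin, was lowest, with normalized counts of 2298, 2328 and 2460.1 in the WT libraries and 1397, 1555 and 1466 in the libraries labelled GFI1-KO, a log2 fold change of -0.68 (SE 0.044, edgeR adjusted p = 1.81e-13). CCNB1, the main mitotic cyclin, had normalized counts of 5296, 5587 and 5695 against 3674, 3707 and 3613 (-0.59, SE 0.034, edgeR adjusted p = 2.53e-14). CDK1, the kinase that these cyclins activate, had normalized counts of 4074, 3873 and 4284 against 2992, 2859 and 2883 and fell by 28.6% (adjusted p = 8.89e-12). For each of these 3 genes the groups stood clear of each other. CCNA2, the cyclin of S phase and early mitosis, fell by 0.54 on the log2 scale. CDC25C, a phosphatase that activates CDK1, fell by 0.21 with overlapping groups (adjusted p = 0.025), and was not called by DESeq2. CDC25B, the phosphatase that starts this activation, went the other way, with normalized counts of 4298, 4600.3 and 4128 in the WT libraries and 5521, 5753 and 5706 in the libraries labelled GFI1-KO (0.38, SE 0.037, edgeR adjusted p = 5.99e-10). Corrected for GC content, CDK1 stood at 0.050 (adjusted p = 0.187) and CDC25B at -0.085 (adjusted p = 0.0263), so that both turned sign, while CCNB1 and CCNB2 remained lower at -0.32 and -0.52.

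All 3 genes for the Polo, Aurora A and NEK2 kinases were lower, to different degrees. PLK1, the Polo kinase of spindle poles and kinetochores, had normalized counts of 2179, 2191 and 2003 in the WT libraries and 1854, 1858 and 1932 in the libraries labelled GFI1-KO. Its highest labelled knockout library lay just under its lowest WT library, and it fell by 11.4% (log2 fold change -0.17, SE 0.042, edgeR adjusted p = 0.000538). AURKA, the kinase of centrosome maturation, had normalized counts of 1423, 1489.9 and 1412 against 1197, 1284 and 1271 (log2 fold change -0.20, SE 0.046, edgeR adjusted p = 0.000278). NEK2, which drives centrosome separation, fell furthest, from 1674 to 1728 down to 962.9 to 1006 (-0.80, SE 0.045, edgeR adjusted p = 9.78e-15). PLK1 showed the largest fall of the 3 once corrected for GC content, at -0.54 (adjusted p = 2.33e-11), next to -0.51 for NEK2 and -0.15 for AURKA.

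The spindle checkpoint delays anaphase until every kinetochore is attached, and all 5 of its genes were lower, 3 of them also after the GC correction. MAD2L1, which encodes the MAD2 protein that holds the APC/C activator CDC20, had normalized counts of 4252, 4063 and 4318 in the WT libraries and 2305, 2386 and 2265 in the libraries labelled GFI1-KO. It fell by 44.9% (log2 fold change -0.86, SE 0.036, edgeR adjusted p = 3.06e-17). TTK, the kinase also called MPS1 that starts the signal, fell by 0.76 on the log2 scale, and BUB1, a kinase of the kinetochore scaffold, by 0.59. BUB1B, the BUBR1 protein of the inhibitory complex, and BUB3, its partner, fell less, by 0.26 and 0.23. BUB3 had normalized counts of 6094, 5788 and 6162 against 5063, 5269 and 5014, with no overlap. After the GC correction, MAD2L1, TTK and BUB1 remained lower (-0.31, -0.35 and -0.21), BUB1B was not called (0.025, adjusted p = 0.585) and BUB3 turned to higher (0.22, adjusted p = 2.46e-06).

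Of 7 centromere and kinetochore genes, 5 were lower, 1 was higher and CENPA, the histone H3 variant that marks centromeres, did not pass (-0.11, adjusted p = 0.054). CENPE, a kinesin that carries chromosomes along microtubules, was lowest, with normalized counts of 3674, 3549 and 3679.7 in the WT libraries and 1696, 1601 and 1760.0 in the libraries labelled GFI1-KO, and it fell by 53.6% (log2 fold change -1.11, SE 0.039, edgeR adjusted p = 7.70e-19). CENPF, a large kinetochore and microtubule protein, fell by 0.86 on the log2 scale. The 4 subunits of the NDC80 complex, the main microtubule hook of the kinetochore, did not move as one. NUF2 fell by 0.91, NDC80 by 0.51 and SPC25 by 0.27, whereas SPC24 rose, with normalized counts of 444.3, 445.0 and 485.9 in the WT libraries and 617.5, 650.1 and 582.6 in the libraries labelled GFI1-KO (0.43, SE 0.067, edgeR adjusted p = 2.87e-06). The normalized count of SPC24 over that of NUF2 was 0.286, 0.319 and 0.318 in the WT libraries and 0.784, 0.822 and 0.718 in those labelled GFI1-KO, without overlap. That ratio was not corrected for GC content, which was 53.3% for SPC24 and 38.8% for NUF2. With the correction for GC content, CENPE (-0.42), CENPF (-0.38) and NUF2 (-0.47) remained lower and SPC24 higher (0.18, adjusted p = 0.0176), while NDC80 (-0.090) was not called and SPC25 (0.098) changed sign without being called.

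The chromosomal passenger complex corrects faulty attachments and later steers cytokinesis, and its 4 genes split, with 2 higher, 1 lower and 1 not called (1, 2 and 1 after the GC correction). AURKB, its kinase, had normalized counts of 613.3, 706.2 and 616.1 in the WT libraries and 938.6, 950.5 and 865.9 in the libraries labelled GFI1-KO, a rise of 42.5% (log2 fold change 0.51, SE 0.062, edgeR adjusted p = 4.52e-08). INCENP, the scaffold, also rose by 0.42 on the log2 scale. BIRC5, which encodes survivin, had normalized counts of 2983, 2848 and 2861 against 2774, 2698 and 2663, and it fell by 6.44% (adjusted p = 0.0185), and CDCA8, which encodes borealin, stood at 0.021 with overlapping groups (adjusted p = 0.674). After correction for GC content, AURKB remained higher (0.14, adjusted p = 0.0435), INCENP turned to -0.035 and was not called, BIRC5 remained lower (-0.25) and CDCA8 was called lower (-0.13, adjusted p = 0.0104). BIRC5 lost its call when any 1 of WT replicate 1, GFI1-KO replicate 2 or GFI1-KO replicate 3 was left out (log2 fold change -0.080, -0.088 and -0.079).

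Kinesins move along microtubules or take them apart. Of 9 kinesin genes, 8 were lower and 1 was higher. KIF20B, a kinesin of the cleavage stage, was lowest, with normalized counts of 2433, 2301 and 2596 in the WT libraries and 1278, 1203 and 1332 in the libraries labelled GFI1-KO, and it fell by 48.0% (log2 fold change -0.94, SE 0.047, edgeR adjusted p = 1.05e-15). KIF18A, which damps chromosome movement at the metaphase plate, fell by 0.91 on the log2 scale, and KIF11, the Eg5 motor that pushes spindle poles apart, by 0.65. KIF14 and KIF23, both of the cytokinetic midzone, fell by 0.60 and 0.53. Smaller falls were seen for KIF4A of chromosome arms (0.34), the microtubule depolymerase KIF2C (0.20) and KIF20A of the midzone (0.15). KIFC1, a minus-end motor that gathers spindle poles, rose, with normalized counts of 1899, 1912 and 1781 in the WT libraries and 2650.1, 2913 and 2682 in the libraries labelled GFI1-KO (0.56, SE 0.042, edgeR adjusted p = 4.62e-12). KIFC1 over KIF11, motors that pull in opposite directions, went from 0.345 ± 0.014 to 0.799 ± 0.085. That ratio was not corrected for GC content, which was 57.5% for KIFC1 and 39.7% for KIF11. After the GC correction, KIF11 stood at -0.18. With GC content corrected for, 7 kinesin genes were lower, KIFC1 remained higher (0.12) and KIF14 was not called (-0.027, adjusted p = 0.554).

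Among 6 genes for spindle assembly and microtubule binding, 5 were lower and 1 was higher. HMMR, a microtubule-associated protein of spindle poles, had the largest fall of all 50 genes (ENSG00000072571, chr5:163460203-163491945, plus strand). It had normalized counts of 1587, 1428 and 1572 in the WT libraries and 720.4, 645.4 and 658.8 in the libraries labelled GFI1-KO, and it fell by 55.9% (log2 fold change -1.18, SE 0.055, edgeR adjusted p = 2.99e-16). DLGAP5, also called HURP, which stabilises kinetochore fibres, fell by 0.95, ASPM of spindle poles by 0.78 and TPX2, which activates Aurora A, by 0.45. All of these remained lower with the GC correction (-0.62, -0.47, -0.15 and -0.39).

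For the other pair in this group, NUSAP1 and PRC1, reads could not be assigned with certainty. PRC1 also rested on few counts, 28 to 93 per library, against 281 to 429 for NUSAP1. PRC1, which bundles antiparallel microtubules in the midzone, had normalized counts of 53.2, 50.9 and 29.4 in the WT libraries and 80.0, 88.1 and 80.9 in the libraries labelled GFI1-KO (0.90, SE 0.20, edgeR adjusted p = 0.000324), the largest rise of the 50. Of its 50-base words, 55.1% are found in other annotated genes. The annotation AC068831.7, which shares exons with PRC1 on the same strand, took more reads and moved the other way, with normalized counts of 508.9, 477.1 and 432.4 against 372.6, 356.3 and 355.8 (-0.39, SE 0.075, edgeR adjusted p = 5.23e-05). NUSAP1, a spindle protein that binds microtubules near chromosomes, fell by 0.50 (SE 0.091, edgeR adjusted p = 2.64e-05), with 78.2% of its words shared. Of the same-strand annotations that share its exons, AC087721.2 had 0 counts in every library, and OIP5-AS1 was not examined. Exons of antisense genes overlap 15 of the 50 genes, among them HMMR (HMMR-AS1), FOXM1 (ITFG2) and CCNA2 (EXOSC9), and the strand setting of the counting is not stated. How the counting divided such reads is not stated, so the direction for PRC1 is uncertain. Shared words were 10.7% to 14.2% for PLK1, KIFC1, FOXM1 and KIF4A, and no more than 10% for the other 44 genes.

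Both cytokinesis genes were lower, ANLN only before the GC correction. ECT2, which activates RhoA at the cleavage furrow, had normalized counts of 5391, 5353 and 5312 in the WT libraries and 3264, 3033 and 3109 in the libraries labelled GFI1-KO (-0.77, SE 0.035, edgeR adjusted p = 1.15e-16). ANLN, the furrow scaffold anillin, had normalized counts of 5157, 4948 and 5188 against 4239.6, 3982 and 4125 (-0.31, SE 0.034, edgeR adjusted p = 8.75e-09). Neither gene's groups overlapped. After the GC correction, ECT2 remained lower (-0.22) and ANLN turned to higher (0.18, adjusted p = 1.41e-05).

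Genes of the exit from mitosis went mostly the other way, with 3 of 4 higher, but with 1 of 4 higher after the GC correction. CDC20, the APC/C activator, had normalized counts of 1871, 1965 and 1948 in the WT libraries and 2569, 2786 and 2662 in the libraries labelled GFI1-KO, a rise of 38.6% (log2 fold change 0.47, SE 0.040, edgeR adjusted p = 4.11e-11). UBE2C, the E2 enzyme of the APC/C, rose by 0.44 on the log2 scale and ESPL1, the protease separase that cuts cohesin, by 0.11. PTTG1, the securin that restrains separase, had normalized counts of 2159, 2311 and 2008 against 1893, 1936 and 1946 and fell by 0.17 (SE 0.044, edgeR adjusted p = 0.00162). CDC20 over MAD2L1, the activator over its inhibitor, was 0.440, 0.484 and 0.451 in the WT libraries and 1.11, 1.17 and 1.17 in those labelled GFI1-KO. That ratio was not corrected for GC content, which was 57.9% for CDC20 and 38.4% for MAD2L1. After the GC correction, MAD2L1 stood at -0.31. Once GC content was corrected for, UBE2C remained higher (0.32, adjusted p = 3.07e-08) and PTTG1 lower (-0.23), CDC20 stood at -0.012 and was not called (adjusted p = 0.791), and ESPL1 turned to lower (-0.19, adjusted p = 4.41e-05).

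FOXM1 and MYBL2, transcription factors that switch on the genes of mitosis, were both higher, unlike 36 of the 50 genes, MYBL2 only before the GC correction. FOXM1 had normalized counts of 2364, 2396 and 2197 in the WT libraries and 3183, 3313 and 3240.4 in the libraries labelled GFI1-KO, a rise of 39.9% (log2 fold change 0.48, SE 0.038, edgeR adjusted p = 1.02e-11). MYBL2 had normalized counts of 3606, 3534 and 3423 against 3781, 3849.6 and 3649.8, a rise of 6.78% (log2 fold change 0.095, SE 0.035, edgeR adjusted p = 0.0178). The groups were far apart for FOXM1 and nearly touched for MYBL2, whose call was lost without GFI1-KO replicate 2 (log2 fold change 0.082) or without WT replicate 3 (0.066). Corrected for GC content, FOXM1 remained higher (0.20, adjusted p = 3.54e-05) and MYBL2 turned to lower (-0.49, adjusted p = 4.48e-12).

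As levels per transcript length, the median of the 50 genes was 33.7 FPKM in WT and 28.8 FPKM in the libraries labelled GFI1-KO, and 49 of them, PRC1 being the exception, lay above the median of all genes tested in WT (4.51 FPKM). In WT the highest levels were those of TOP2A (155.6 ± 5.86 FPKM), CCNB1 (131.1 ± 4.95) and UBE2C (104.9 ± 3.30). In the libraries labelled GFI1-KO the order was UBE2C (140.2 ± 4.47 FPKM), TOP2A (87.0 ± 2.47) and CCNB1 (86.0 ± 1.08), the last 2 within their spread. The FPKM levels of the 50 genes ranked alike in both groups (Spearman's rho 0.90 across genes, which share the libraries).

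GC content, the share of G and C in a gene's longest GENCODE transcript, moved with the fold changes. Across the 50 genes Spearman's rho between log2 fold change and GC content was 0.88, and across the 17415 tested genes with a GC value it was 0.57. Both are descriptions over genes of the same libraries. The 36 lower genes had a median GC content of 40.9% (34.3% to 57.1%), the 11 higher genes 57.0% (48.1% to 60.5%) and all genes tested 48.2%. The genes tested were split by GC content into 4 bins of equal size. In the poorest bin, 20 of 20 mitotic genes were lower and their median log2 fold change was -0.79, while 71.9% of the other genes there were lower, with a median of -0.47. In the next 2 bins the medians were -0.34 (13 mitotic genes) against -0.16, and -0.03 (10) against 0.20. In the richest bin, 6 of 7 mitotic genes were higher, with a median of 0.38, against 0.61 for the other genes. In each bin the median of the mitotic genes thus lay below that of other genes of like GC content. The part of GC content in these changes was not tested.

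**Figure D2:**
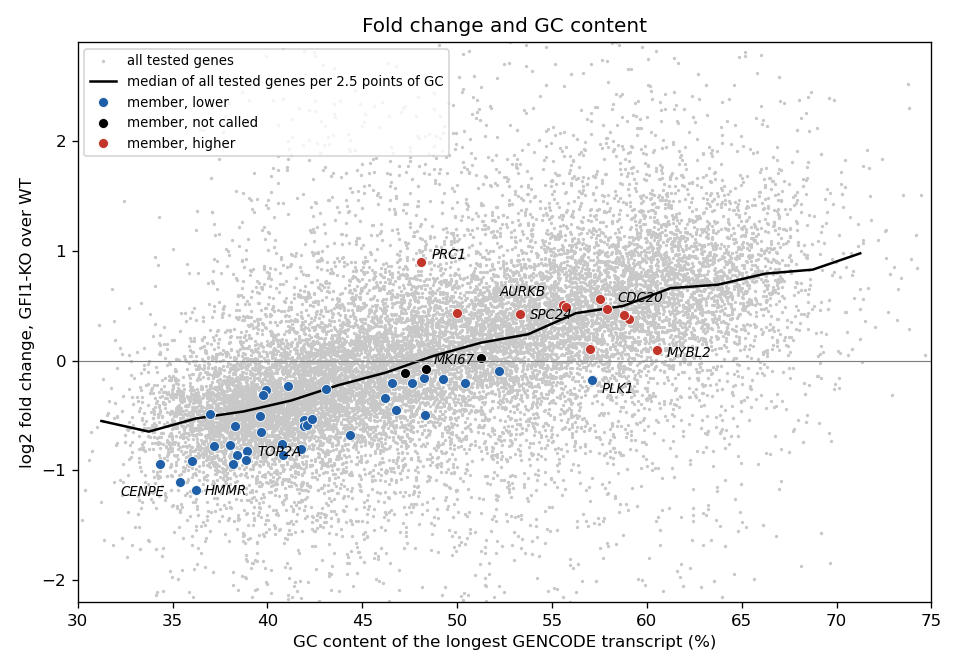
Log2 fold change, GFI1-KO over WT (y axis), against GC content in percent (x axis). Grey points are tested genes, the line is their median per step of 2.5 percentage points, and large points are the 50 mitotic genes coloured by call, with tested genes beyond the axes left out. Lower genes gather at low GC content (median 40.9%) and higher ones at high GC content (median 57.0%), with PLK1 (lower) and PRC1 (higher) apart from this order.

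The correction gave each library an offset fitted to GC content and gene length. With it, 32 of the 50 genes were lower and 8 higher, against 25.8% and 35.4% of all genes tested, and the median log2 fold change was -0.19 (0.05 for all genes). Of the calls, 34 held their direction (28 lower, 6 higher). The 6 that were higher either way were UBE2C, FOXM1, SPC24, AURKB, KIFC1 and PRC1. BUB3 and ANLN went from lower to higher, and CDC25B, ESPL1 and MYBL2 from higher to lower. A further 6 lower genes (CDC25C, CDK1, BUB1B, NDC80, SPC25 and KIF14) and 2 higher genes (INCENP and CDC20) lost their call, and CDCA8 gained one. HMMR, MAD2L1, TTK, NUF2, CENPE, CENPF, DLGAP5, NEK2, CCNB1, CCNB2 and TOP2A were among the genes lower either way.

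**Figure D3:**
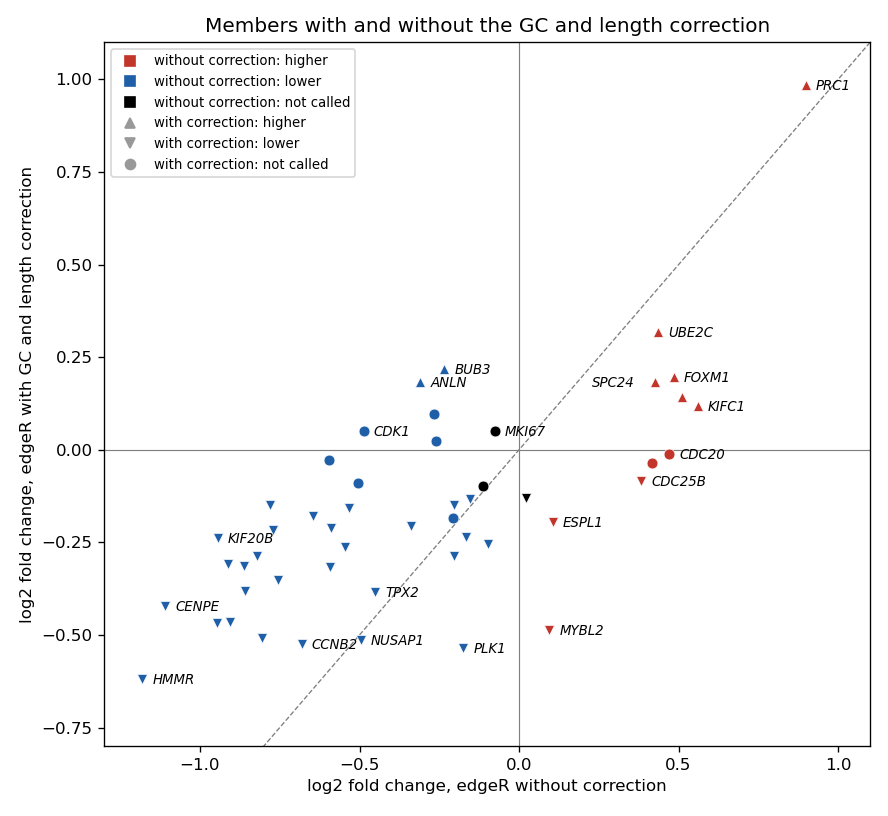
Log2 fold change of each of the 50 genes in the edgeR fit without correction (x axis) and with the GC and length correction (y axis). Colour gives the call without correction and marker shape the call with it, and the dashed line marks equal values. Most lower genes move toward 0, while PLK1 (-0.17 to -0.54) and MYBL2 (0.09 to -0.49) move down.

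The 50 genes lie on 18 chromosomes. Relative to the median of the other tested genes on the same chromosome, 35 of them were lower, the median difference being -0.28 on the log2 scale. Relative to the 20 nearest tested genes, 38 were lower, the median difference being -0.24, although the neighbours' own medians ran from -0.79 (around ECT2) to 0.65 (around INCENP). For 12 of the genes the sign turned when the neighbours' median was taken off. ECT2 stood level with its neighbours, and TOP2A (GC content 38.9%) stood at -0.82 beside neighbours at 0.41. With the GC correction TOP2A itself stood at -0.29. The fold changes set against chromosomes and neighbours were not corrected for GC content. The same counts were not made over all genes tested.

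A further 118 genes of the mitotic machinery, listed by complex, had a median log2 fold change of -0.36, with 82 lower and 26 higher (35.9% and 36.5% of all genes). After the GC correction the shares of all genes were 25.8% and 35.4%. These shares are the background for each list that follows. Condensin, which compacts chromosomes, had 7 of 8 genes lower and 1 higher (5 and 2 after the GC correction). Its NCAPG had the largest fall of all genes in these lists (3336 ± 78.0 against 1104 ± 55.4 normalized counts, log2 fold change -1.60, edgeR adjusted p = 1.63e-21), while NCAPH2, of the condensin II complex, rose (1.00, adjusted p = 6.66e-17). Cohesin and its guardians, which hold sister chromatids together, had 10 of 11 lower and none higher, but 4 lower and 3 higher after the GC correction, which moved their median from -0.57 to 0.0085. SGO2, a guardian of centromeric cohesin, fell most (2053 ± 98.6 against 1085 ± 27.1 normalized counts, log2 fold change -0.92, edgeR adjusted p = 7.32e-16).

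Of 26 genes of the inner centromere network and outer kinetochore, 20 were lower and 5 higher (11 and 3 after the GC correction), from CENPU (3209.7 ± 173.3 against 1459 ± 23.1 normalized counts, log2 fold change -1.14, edgeR adjusted p = 1.72e-18) to the outer kinetochore protein ZWINT (2291 ± 47.5 against 3622 ± 12.7 normalized counts, log2 fold change 0.66, edgeR adjusted p = 2.84e-15). The list of APC/C subunits and regulators had 10 of 17 genes lower and 5 higher (6 and 6 after the GC correction). Its lowest was the subunit ANAPC13 (-0.73, adjusted p = 1.37e-12) and its highest the activator FZR1 (0.65, adjusted p = 2.56e-12), which works after CDC20. Augmin and gamma-tubulin ring genes, which seed spindle microtubules, had 8 of 15 lower and 5 higher (6 and 5 after it), from HAUS3 (-1.39, adjusted p = 1.09e-16) to TUBGCP6 (1.06, adjusted p = 6.69e-18). Of all genes tested, 35.9% were lower and 36.5% higher, and 25.8% and 35.4% after the GC correction. After it, 35.3% of the APC/C list were lower and 35.3% higher, and 40.0% and 33.3% of the augmin list.

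MuvB core and DREAM genes had 8 of 11 lower and 2 higher, but 2 lower and 2 higher after the GC correction, with 7 not called. LIN54, the subunit that reads the CHR, fell by 0.57 on the log2 scale (adjusted p = 1.94e-10), and LIN37 rose on few counts (18.7 ± 4.57 against 53.4 ± 11.5 normalized counts). Of 30 other mitotic regulators, 19 were lower and 8 higher (15 and 7 after the correction), the highest being KIF18B, a microtubule depolymerase (0.86). Corrected for GC content, 49 of the 118 genes were lower and 28 higher (25.8% and 35.4% of all genes tested), with a median of -0.02. NCAPG (-1.08), HAUS3 (-0.86), CENPU (-0.66), ANAPC13 (-0.62) and SGO2 (-0.23) remained lower, ZWINT (0.60), TUBGCP6 (0.57), KIF18B (0.43) and NCAPH2 (0.40) remained higher, and LIN54 (-0.039) and FZR1 (0.072) were not called.

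For the phase before mitosis, 49 DNA replication and S phase genes had 32 lower and 12 higher (35.9% and 36.5% of all genes tested). Their median log2 fold change was -0.19. POLE2, a subunit of the leading-strand polymerase, fell most (-0.99, adjusted p = 3.05e-13), and MCM5, of the replicative helicase, rose most (0.92, adjusted p = 6.36e-18). Corrected for GC content, 25 were lower and 10 higher (25.8% and 35.4% of all genes tested), with a median of -0.10. The medians of the mitotic and the replication genes were not compared by a test, so the fall cannot be called particular to either.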

How the data were processed

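RNA from untreated H1155 cells was sequenced in 6 libraries, 3 WT and 3 GFI1-KO, grouped by their titles. The authors deposited raw read counts per gene, with gene coordinates and lengths, on hg38. The study's methods name Hisat2 and featureCounts, whereas the submitters' processing notes name Bowtie2 and HTSeq. The annotation, strand setting and treatment of reads that match several genes are not given in the sources used here, so reads of overlapping antisense genes cannot be told apart.

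Counts were tested with edgeR 4.0.16 in R 4.3.3 (filterByExpr, TMM factors, quasi-likelihood F test, Benjamini-Hochberg over 17514 genes, adjusted p at most 0.05, no fold minimum), and each SE was taken from the log2 fold change and its F. FPKM used the deposited lengths and the library totals. Depth was 14882914 to 17692882 counts, and 3 counts, the limit of detection by counting alone, equal 0.170 to 0.202 CPM. Alternatives were DESeq2 1.42.0, limma-voom 3.58.1, other scaling factors and filters, each library left out, a replicate block, a threshold of 0.01, and offsets per library from natural splines (5 degrees of freedom) of GC content and length, for which 99 tested genes had no GC value. The scripts were tested on simulated data. Deviations from the group means of same-numbered libraries correlated at -0.0062, 0.0134 and 0.0213 over 11859 genes, so the numbers were not used to pair libraries. All replicates differed by more than counting noise.

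The 50 genes and the other lists were chosen with earlier results of these data known, so no list was tested as a set. Values in every library are given for MKI67, TOP2A, CCNB1, CDK1, PLK1, AURKA, AURKB, CDC20, FOXM1 and MYBL2 and for the extremes of each role group. In other lists the called genes with the highest and lowest change were named. Some genes that this rule would name are not reported here. Per-library values of BUB3, BIRC5, PTTG1, the overlapping annotation and the ratios were added after the values were seen. Promoters came from RefSeq.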

Additional observations from a re-analysis of the deposited data

How the results depend on the processing

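Over the alternatives, 8 to 11 of the 50 mitotic genes were higher and 32 to 38 lower, each within 1.5 times the reported count. The replicate block, for libraries that share only a number, gave 11 and 36 and changed the call of none of the 50. DESeq2 gave 11 and 36. The GC and length offsets changed most. They turned 12 log2 fold changes, and the values without and with the replicate block agreed when rounded except where 2 are given: ANLN 0.18, BUB1B 0.025, BUB3 0.22, CDC20 -0.012 and -0.013, CDC25B -0.085, CDCA8 -0.13, CDK1 0.050, ESPL1 -0.19, INCENP -0.035 and -0.034, MKI67 0.051 and 0.052, MYBL2 -0.49 and SPC25 0.098. The median of the 50 became -0.19 with either (-0.189 and -0.188), and -0.37 with upper-quartile factors. The other mitotic genes that were lower numbered 49 with the offsets and 48 with offsets and block. CDCA8, not called, was -0.021 with upper-quartile factors and ranged from -0.022 (without WT replicate 3) to 0.046 with 1 library left out. GFI1 was no longer called with DESeq2 (0.31), upper-quartile factors (0.27), the offsets (0.21 with or without the block) or a threshold of 0.01 (0.31), and ranged from 0.21 to 0.43 with 1 library left out, losing its call without GFI1-KO replicate 2 (0.27), WT replicate 2 (0.21) or WT replicate 3 (0.28). MKI67 passed with DESeq2, limma-voom, 4 other scalings or filters, or without WT replicate 3 (-0.12). CENPA passed without GFI1-KO replicate 2 (-0.14) or WT replicate 1 (-0.15). CDC25C lost its call without GFI1-KO replicate 1 (-0.19) or 2 (-0.19) or WT replicate 1 (-0.18) or 2 (-0.15), and ESPL1 without WT replicate 1 (0.082). The causes of these changes were not tested. Depth limits PRC1 most, at 28 to 93 counts per library.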
